A study of Homo sapiens with 6 samples.

Results

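The genes described here are 10 transcriptional outputs of the ERK pathway, most of which feed back on it: the MAP kinase phosphatases DUSP4, DUSP5 and DUSP6, the Sprouty genes SPRY2 and SPRY4, the Spred genes SPRED1 and SPRED2, the ETS transcription factors ETV4 and ETV5, and PHLDA1. They were chosen by symbol, and each matched 1 of the 61806 rows of the deposited table. All 10 passed the filter on low counts and were among the 15687 genes tested. The libraries were poly(A) RNA-seq of HCT116, an epithelial line from a human colorectal carcinoma. The control group (si-NC, 3 libraries, genotype labelled wildtype) received a control short interfering RNA. The other group (si-STRIP2, 3 libraries) received short interfering RNA against STRIP2, whose protein belongs to STRIPAK, an assembly of kinases around the phosphatase PP2A. The library titles do not say whether their numbers mark replicates of a single sequence or different sequences. Time after transfection is not given in the sources used here, and separate cultures are not stated in the labels, so p-values measure only the spread between these libraries.

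In the ERK pathway, active RAS recruits RAF kinases, RAF activates MEK, and MEK activates ERK, which enters the nucleus and raises the transcription of a small set of genes. Several of these encode brakes: dual-specificity phosphatases remove the activating phosphates from ERK and related MAP kinases, and Sprouty and Spred proteins act between the receptor and RAF. Because their transcripts follow ERK activity, they are widely used as a readout of the pathway in tumour cells, along with ETV4, ETV5 and PHLDA1. The libraries hold RNA alone, and ERK activity itself was not measured here.

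The 6 libraries held 17184963 to 21721218 counts and had TMM scaling factors of 0.990 to 1.01. The correlation of log2(FPKM + 1) across the genes tested was at least 0.996 within groups and at most 0.985 between groups. STRIP2 (ENSG00000128578, chromosome 7, 129434432 to 129488399, plus strand) lay between 3.19 and 3.81 FPKM in si-NC and between 2.53 and 2.71 FPKM in si-STRIP2, which is 72.6% of the mean in si-NC (log2 fold change -0.46, SE 0.083, edgeR adjusted p = 1.62e-05). Of the epithelial markers, EPCAM, KRT8, KRT18, KRT19, CDH1 and CDX2 were detected and VIL1 was near 0. Among them CDH1 (log2 fold change -0.60), KRT18 (-0.18) and EPCAM (-0.11, named after its value was seen) were called lower and CDX2 (0.38) and KRT19 (0.22) higher, and their part in the results was not tested. The summed FPKM of the 7 epithelial markers was 690.67 to 720.73 in si-NC and 667.43 to 691.02 in si-STRIP2. The summed FPKM of 6 fibroblast markers was 2.22 to 2.68 in si-NC and 1.94 to 2.2 in si-STRIP2, nearly all from COL1A1, with COL1A2 at 0 counts in each library. Sums were at most 0.60 FPKM for 6 leukocyte markers and at most 0.46 FPKM for 4 endothelial markers in each library.

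The 10 genes did not move as a unit. PHLDA1 fell the most, DUSP4 and DUSP6 fell by a smaller amount, and SPRY4, SPRED1 and SPRED2 fell slightly. DUSP5 and ETV4 rose. SPRY2 and ETV5 were not called. Of the 10 members 6 were called lower and 2 higher, where 27.0% of all genes tested were called lower, 27.8% were called higher and 54.8% were called in either direction. For 9 members no si-STRIP2 library reached into the FPKM range of the si-NC libraries or the reverse, as for 58.6% of all genes tested. The median log2 fold change was -0.14 over the members and 0.014 over all genes tested. In a bulk library, fewer cells with a transcript and less of it per cell cannot be told apart. Effects of the short interfering RNA other than on STRIP2 were not tested.

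**Figure D1:**
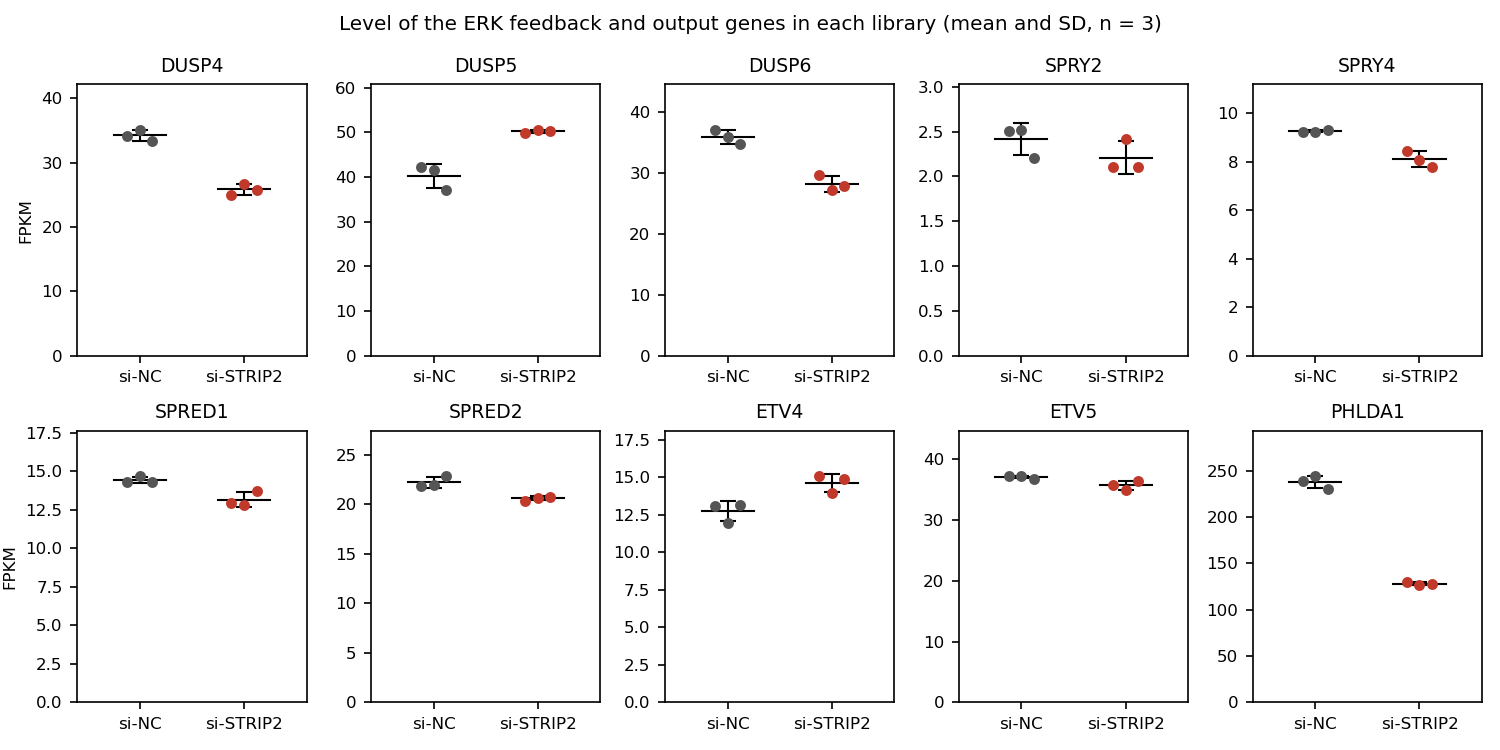
FPKM (linear axis from 0) of each of the 10 genes in the 3 si-NC (grey) and 3 si-STRIP2 (red) libraries, with 1 point per library and a bar for the mean and SD. The groups overlap for SPRY2 alone, and PHLDA1 has the widest gap, from a mean of 237.90 to 128.25 FPKM.

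Most of these changes were small. Of the 8 called members, 4 (SPRY4, SPRED1, SPRED2 and ETV4) differed by less than 1.2-fold. Tested against a 1.2-fold change in place of no change, 3 members were called lower (PHLDA1, DUSP4 and DUSP6) and 0 higher, where 23.7% of all genes tested were called in either direction. In the test against no change, PHLDA1 fell further than all but 570 of the 4240 genes called lower. DUSP4 was exceeded by 2067 of those, DUSP6 by 2412 and STRIP2 itself by 1808. The rise of DUSP5 was exceeded by 2589 of the 4359 genes called higher.

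**Figure D2:**
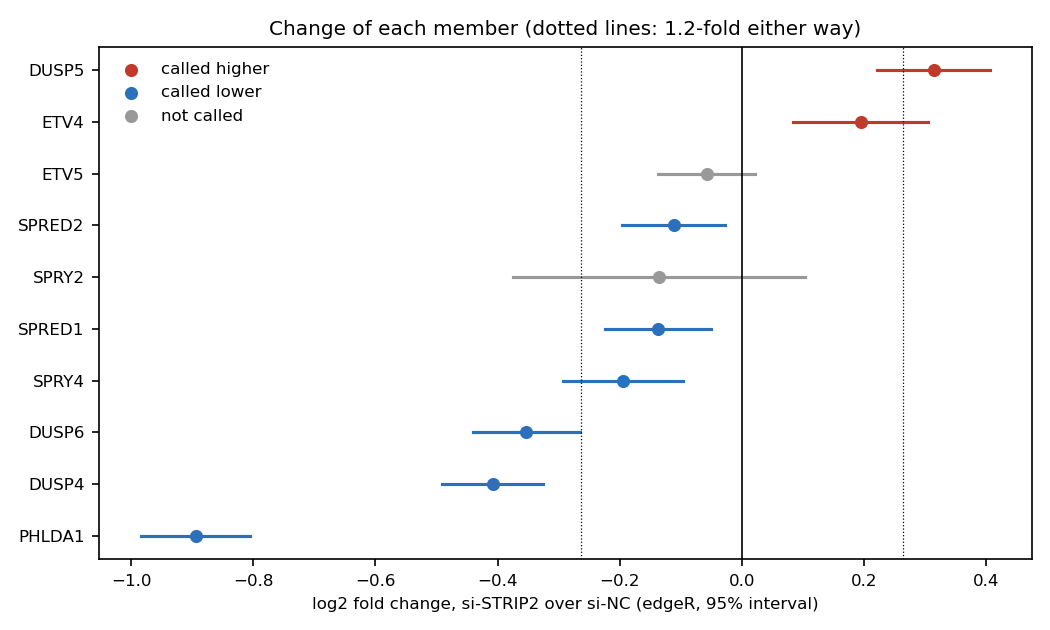
Log2 fold change (si-STRIP2 over si-NC) of each gene with its 95% interval from edgeR, coloured by call, with dotted lines at 1.2-fold in either direction. The intervals of PHLDA1, DUSP4 and DUSP6 lie wholly below the lower dotted line, and those of SPRY2 and ETV5 include 0.

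DUSP4 encodes a nuclear phosphatase of ERK and of the stress-activated MAP kinases JNK and p38. The gene (ENSG00000120875, chromosome 8, 29333064 to 29350684, minus strand) had 34.16, 35.10 and 33.37 FPKM in si-NC libraries 1 to 3 and 25, 26.74 and 25.75 FPKM in si-STRIP2 libraries 1 to 3. All 3 si-STRIP2 values were under the lowest control value, at 75.5% of the mean in si-NC. DUSP4 thus fell by 0.41 on the log2 scale (SE 0.041, edgeR adjusted p = 1.80e-10), measured on 3226 to 5396 counts per library.

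DUSP5 encodes a nuclear phosphatase that is selective for ERK. The gene (ENSG00000138166, chromosome 10, 110497907 to 110511533, plus strand) had 42.19, 41.50 and 37.14 FPKM in the si-NC libraries and 49.89, 50.57 and 50.23 FPKM in the si-STRIP2 libraries. The si-STRIP2 values lay within 1 FPKM of each other and above each control value, of which the lowest was that of si-NC library 3. The mean rose from 40.28 ± 2.74 to 50.23 ± 0.34 FPKM (SD, n = 3), an increase to 125%. On the log2 scale DUSP5 rose by 0.31 (SE 0.045, edgeR adjusted p = 3.92e-07).

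DUSP6 encodes a cytoplasmic phosphatase that is selective for ERK and binds it directly. The gene (ENSG00000139318, chromosome 12, 89347235 to 89352501, minus strand) had 37.14, 35.99 and 34.79 FPKM in the si-NC libraries and 29.65, 27.21 and 27.84 FPKM in the si-STRIP2 libraries. The groups did not overlap, and the si-STRIP2 mean was 78.5% of that in si-NC. On the log2 scale DUSP6 fell by 0.35 (SE 0.043, edgeR adjusted p = 1.50e-08).

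The promoter of DUSP6 is shown because it held matches to the octamer of CIC, a repressor of ETS factor, Sprouty and DUSP genes that ERK signalling inactivates. The sequence is the RefSeq window of GRCh38.p14, chr12:89352502-89352751, minus strand, and covers the 250 bases before the start of the gene. Capitals mark the match.
DUSP6: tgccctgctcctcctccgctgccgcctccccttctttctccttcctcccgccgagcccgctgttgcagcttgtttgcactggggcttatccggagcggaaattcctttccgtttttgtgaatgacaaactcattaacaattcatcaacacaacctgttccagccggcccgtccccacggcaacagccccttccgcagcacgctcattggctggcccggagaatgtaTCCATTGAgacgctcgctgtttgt

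The octamer was searched as TGAATGAA, TGAATGGA, TCAATGAA or TCAATGGA on both strands, over 300 bases that also included 50 after the start. The forms beginning TC were added after the promoters had been seen. DUSP6 had the match TCCATTGA, which is TCAATGGA on the other strand, at bases -24 to -17 and again at bases 2 to 9, where 1 is the first base of the gene. Of 35116 RefSeq windows of this length, 3.77% held at least 1 of the forms. Both DUSP6 matches are of a form beginning TC, added after the promoters were seen, so this share is a description and not a test. RefSeq windows of 6 members were used, 9 windows in all (DUSP6, SPRY2, SPRY4, SPRED1, SPRED2 and PHLDA1), and DUSP6 was the only 1 of the 6 with an octamer. Windows of DUSP4, DUSP5, ETV4 and ETV5 were not used, so it is not known here whether they hold an octamer. The other windows held 3 matches among 7 further motifs that were searched. SPRY2 had 1 for EGR factors (GCGTGGGCG or GCGGGGGCG, in 5.77% of windows). An internal SPRED2 promoter had 1 for AP-1 (TGACTCA, in 4.95%) and 1 for the TATA box (TATAAA, in 11.5%). None of the 9 windows matched the CRE (TGACGTCA, in 1.85% of windows), the ETS motif (CCGGAAGT, in 4.14%), the E-box (CACGTG, in 7.26%) or the CArG box (in 1.29%). A match is a description of the letters, and no binding was measured here.

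SPRY2 and SPRY4 encode Sprouty proteins, which are phosphorylated on receptor signalling and restrain RAS and RAF activation. SPRY4 (ENSG00000187678, chromosome 5, 142310427 to 142326455, minus strand) had 9.25, 9.23 and 9.33 FPKM in si-NC and 8.46, 8.10 and 7.79 FPKM in si-STRIP2. The control values were close together, and each si-STRIP2 value lay below them. SPRY4 fell by 0.19 on the log2 scale (SE 0.048, edgeR adjusted p = 0.000907). SPRY4-AS1, a gene on the opposite strand that overlaps SPRY4 in coordinates, held 5.84% as many counts, shares 0 exonic bases with it in GENCODE 29 and had a log2 fold change of -0.38 (edgeR adjusted p = 0.0618).

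SPRY2 (ENSG00000136158, chromosome 13, 80335976 to 80341126, minus strand) was the least abundant of the 10 genes, with 116 to 175 counts per library. Its FPKM values were 2.51, 2.52 and 2.21 in si-NC and 2.10, 2.42 and 2.10 in si-STRIP2. The groups overlapped. The log2 fold change was -0.14 with a 95% interval of -0.37 to 0.10 (edgeR adjusted p = 0.340), and the interval includes both no change and a fall of the size found for DUSP6.

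SPRED1 and SPRED2 encode Sprouty-related proteins, and SPRED1 brings the RAS inactivator neurofibromin to the membrane. SPRED1 (ENSG00000166068, chromosome 15, 38252836 to 38357249, plus strand) had 14.33, 14.68 and 14.29 FPKM in si-NC and 12.93, 12.84 and 13.70 FPKM in si-STRIP2, a fall with a log2 fold change of -0.14 (SE 0.043, edgeR adjusted p = 0.00699). SPRED2 (ENSG00000198369, chromosome 2, 65310851 to 65432637, minus strand) had 21.84, 21.95 and 22.83 FPKM in si-NC and 20.37, 20.65 and 20.76 FPKM in si-STRIP2. The groups did not overlap for either gene, but the gap between the closest libraries of SPRED1 was narrow. The log2 fold change of SPRED2 was -0.11 (SE 0.041, edgeR adjusted p = 0.0220). Its call was lost without si-NC library 3 (edgeR adjusted p = 0.0557), without si-STRIP2 library 1 (edgeR adjusted p = 0.0948), without si-STRIP2 library 2 (edgeR adjusted p = 0.0561) and with no filter on low counts (edgeR adjusted p = 0.0586).

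ETV4 and ETV5 encode transcription factors of the PEA3 group of the ETS family, and their genes are known outputs of ERK signalling. ETV4 (ENSG00000175832, chromosome 17, 43527844 to 43579620, minus strand) had 13.11, 11.96 and 13.13 FPKM in si-NC and 15.06, 13.95 and 14.85 FPKM in si-STRIP2. All 3 si-STRIP2 values exceeded the highest control value. ETV4 rose by 0.19 on the log2 scale (SE 0.054, edgeR adjusted p = 0.00287). This value is uncertain, because DHX8, the gene of an RNA helicase, overlaps ETV4 on the opposite strand and its count was 163% of that of ETV4, while it is not given whether reads were assigned by strand. DHX8 had a log2 fold change of 0.20 (SE 0.045, edgeR adjusted p = 0.000429). The genes share 68 exonic bases in GENCODE 29 on GRCh38, which is 1.89% of the exonic bases of ETV4, and the part of DHX8 in the result was not tested.

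ETV5 (ENSG00000244405, chromosome 3, 186046314 to 186110318, minus strand) had 37.15, 37.19 and 36.80 FPKM in si-NC and 35.67, 34.95 and 36.39 FPKM in si-STRIP2. The groups did not overlap, yet the gene was not called (edgeR adjusted p = 0.214). The log2 fold change was -0.06 with a 95% interval of -0.14 to 0.022. The lower bound of that interval is nearer 0 than the fitted changes of PHLDA1, DUSP4 and DUSP6.

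PHLDA1 encodes a protein with a pleckstrin homology-like domain, and its transcript is among those that rise and fall with ERK activity. The gene (ENSG00000139289, chromosome 12, 76025447 to 76031776, minus strand) had 238.98, 244.09 and 230.64 FPKM in si-NC and 130.26, 126.74 and 127.74 FPKM in si-STRIP2. The gap between the groups was far wider than the spread within either. The mean went from 237.90 ± 6.79 to 128.25 ± 1.81 FPKM (SD, n = 3), which left 53.9%. With a log2 fold change of -0.89 (SE 0.044, edgeR adjusted p = 4.14e-18), PHLDA1 was 1.86-fold lower, on 13009 to 30694 counts per library. Of the related genes PHLDA2 and PHLDA3, neither was called, with log2 fold changes of -0.14 (edgeR adjusted p = 0.0796) and 0.09 (edgeR adjusted p = 0.462).

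The promoter of PHLDA1 is shown because the gene had the largest change of the 10. The sequence is the RefSeq window of GRCh38.p14, chr12:76031777-76032026, minus strand, and covers the 250 bases before the start of the gene. It has no capitals, since none of the motifs named for DUSP6 was found in it. Its full 300-base window was 69.3% G and C, against 58.3% for DUSP6 and a median of 58.7% over all windows.
PHLDA1: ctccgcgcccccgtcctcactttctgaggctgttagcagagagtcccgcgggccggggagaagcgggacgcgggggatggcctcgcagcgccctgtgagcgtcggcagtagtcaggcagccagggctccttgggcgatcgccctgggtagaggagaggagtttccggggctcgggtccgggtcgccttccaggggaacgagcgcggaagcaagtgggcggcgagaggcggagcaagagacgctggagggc

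The levels of the 10 genes spanned about 2 orders of magnitude per unit length. In si-NC the order of mean FPKM was PHLDA1, DUSP5, ETV5, DUSP6, DUSP4, SPRED2, SPRED1, ETV4, SPRY4 and SPRY2. The neighbours from DUSP5 to DUSP4 in this order overlapped between libraries, at 33.37 to 42.19 FPKM, while the genes below them were separated. In si-STRIP2, DUSP5 stood apart from ETV5, DUSP6 and DUSP4, none of whose values overlapped. SPRED1 lay above ETV4 in each si-NC library and below it in each si-STRIP2 library. All members except SPRY2 lay above the median level of the genes tested, and PHLDA1 was at the 99.1st percentile.

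Within families, the ratio of the members in each library shows whether they changed by the same factor. The DUSP5/DUSP6 ratio of FPKM was 1.14, 1.15 and 1.07 in the si-NC libraries and 1.68, 1.86 and 1.80 in the si-STRIP2 libraries. The groups did not overlap, and the ratio was 1.59-fold higher after knockdown (2-sided exact permutation test, p = 0.1, the smallest that 3 against 3 allows, and 0.25 after Benjamini-Hochberg adjustment over the 5 ratios). Between DUSP5 and DUSP6 alone, near parity of transcript per unit length in si-NC became an excess of DUSP5 in si-STRIP2. Other ERK-selective phosphatase genes are not part of this ratio, and DUSP7 and DUSP9 were called higher. Both were at lower levels, with means of 2.18 and 1.38 FPKM in si-NC and of 3.04 and 2.08 FPKM in si-STRIP2. The ETV4/ETV5 ratio was 0.353, 0.322 and 0.357 in si-NC and 0.422, 0.399 and 0.408 in si-STRIP2, a 1.19-fold higher level without overlap (2-sided exact permutation test, p = 0.1, adjusted p = 0.25). This ratio carries the uncertainty of ETV4.

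The other 3 ratios overlapped between the groups. DUSP4/DUSP6 averaged 0.951 ± 0.029 in the controls and 0.917 ± 0.070 after knockdown (SD, n = 3, 2-sided exact permutation test, p = 0.7). SPRY2/SPRY4 had means of 0.260 ± 0.020 and 0.272 ± 0.025 (SD, n = 3, 2-sided exact permutation test, p = 0.6). SPRED1/SPRED2 had means of 0.650 ± 0.022 and 0.639 ± 0.019 (SD, n = 3, 2-sided exact permutation test, p = 0.6). After adjustment each of these was 0.7 by the exact test, which does not show that the members changed equally.

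**Figure D3:**
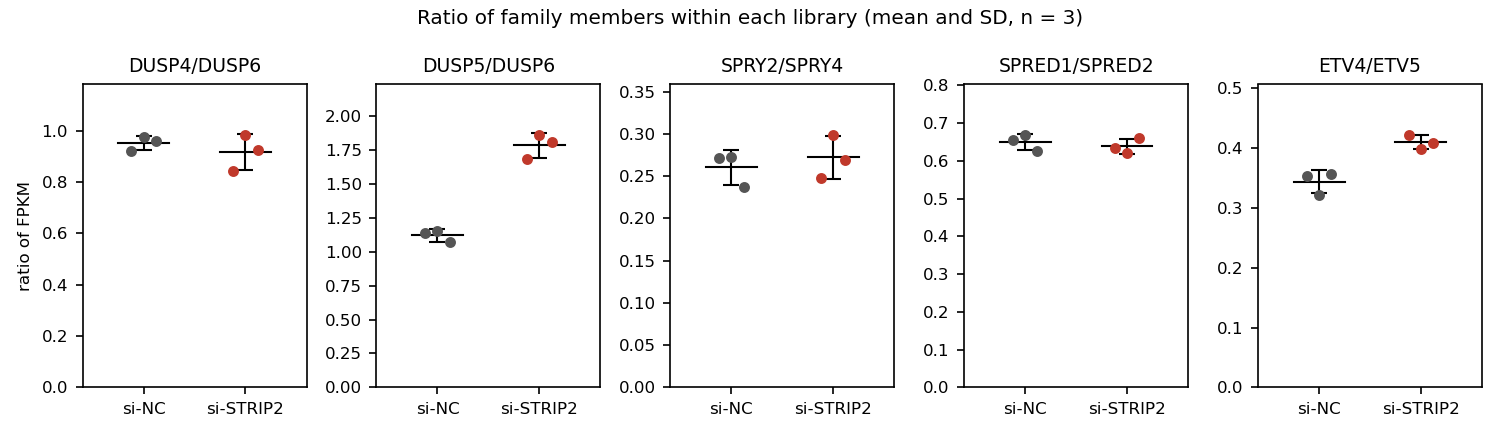
Ratio of FPKM (linear axis from 0) of 2 members of a family within each library, with 1 point per library, si-NC in grey and si-STRIP2 in red, and a bar for the mean and SD. DUSP5/DUSP6 and ETV4/ETV5 separate the groups, with means of 1.12 against 1.78 and of 0.344 against 0.410.

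The remaining members of these families were mostly rare or not called. SPRY1 (log2 fold change -0.25, edgeR adjusted p = 0.355) and SPRY3 (-0.01, edgeR adjusted p = 0.979) had means under 1 FPKM in both groups. SPRED3, also under 1 FPKM, was called lower (-0.84, SE 0.201, edgeR adjusted p = 0.000653). ETV1, the remaining gene of the PEA3 group, was not called, at 6.80 FPKM in si-NC and 7.34 FPKM in si-STRIP2 (log2 fold change 0.11, edgeR adjusted p = 0.0708).

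Of 10 other dual-specificity phosphatases of MAP kinases, 5 were called lower and 2 higher, and the median change was -0.17 (log2). The shares over all genes tested were 27.0% lower and 27.8% higher. DUSP1, an immediate early gene whose product acts on p38, JNK and ERK, fell from 8.95 to 4.06 FPKM (log2 fold change -1.14, SE 0.094, edgeR adjusted p = 2.28e-12), a larger change than that of any of the 10 members. DUSP10 and DUSP8, whose products act mainly on p38 and JNK, fell by 0.73 and 0.62 on the log2 scale, and the ERK-selective DUSP9 rose by 0.59. The remaining gene called higher was DUSP7, named after its value was seen, which encodes another ERK-selective phosphatase (log2 fold change 0.47, edgeR adjusted p = 3.03e-05).

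The 8 pathway lists, which cover steps of the ERK pathway, relatives of the members and other output genes, held 67 genes. Of these, 21 were called higher and 28 lower, where 27.8% and 27.0% of all genes tested were. The median log2 fold change was -0.05. Because the lists were chosen with earlier results of these data known, their counts are a description only. Among 8 receptor adaptors and exchange factors, 6 were lower and 1 was higher. SOS2, which loads RAS with GTP, went from 8.14 to 5.32 FPKM (log2 fold change -0.61, edgeR adjusted p = 1.33e-11). CBL, a ubiquitin ligase of activated receptors, had a log2 fold change of -0.56, and the adaptor genes GRB2 and SHC1 had -0.25 and -0.22. The gene called higher was SOS1, named after its value was seen (0.14).

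Of 8 genes of RAS proteins and GTPase activators, 5 were called higher and 1 lower, where 27.8% and 27.0% of all genes tested were. RASA2 and RASA1, which encode activators of GTP hydrolysis by RAS, rose by 0.27 and 0.16, and RRAS and HRAS rose by 0.26 and 0.21 on the log2 scale. Of 12 RAF, MEK and ERK kinases and scaffolds, 4 were higher, 3 were lower and 5 were not called. SHOC2, a scaffold that promotes RAF activation, fell by 0.60, and KSR1, a scaffold for RAF, MEK and ERK, fell by 0.35. PEBP1, the RAF kinase inhibitor protein gene, rose from 103.24 to 140.88 FPKM (log2 fold change 0.45, edgeR adjusted p = 1.62e-11), and LAMTOR3, a MEK scaffold gene, rose by 0.37.

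Each of the 7 kinase genes downstream of ERK was called, 4 higher and 3 lower, where 54.8% of all genes tested were called. The RSK genes split: RPS6KA1 rose by 0.53, while RPS6KA2 and RPS6KA3 fell by 0.75 and 0.36 on the log2 scale. RPS6KA5, which encodes the kinase MSK1, fell by 0.58. Of 6 genes of ternary complex factors, their partner SRF and the repressors CIC and ERF, 3 were higher and 1 was lower. The shares over all genes tested were 27.8% higher and 27.0% lower. ELK4 fell by 0.53, CIC rose by 0.19, ELK3 rose by 0.17 and SRF rose by 0.13. For SRF the FPKM values of the groups overlapped (edgeR adjusted p = 0.0447).

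All 10 of the other ERK output genes were called, 8 lower and 2 higher, and the median change was -0.40 (log2). Over all genes tested, 54.8% were called, 27.0% lower and 27.8% higher. This list was chosen with earlier results of these data known, so its counts are a description only. Of this list, FOS, EGR1, MAFF and IER3 had the largest falls, and MYC, named after its value was seen, fell by 0.22. FOS went from 22.06 ± 3.49 to 5.47 ± 0.690 FPKM and EGR1 from 37.99 ± 2.42 to 13.90 ± 0.262 FPKM (SD, n = 3), with log2 fold changes of -2.01 (edgeR adjusted p = 5.41e-20) and -1.45 (edgeR adjusted p = 2.38e-22). MAFF and IER3 had log2 fold changes of -1.02 and -0.67. The genes called higher were FOSL1 (0.41), an AP-1 subunit that accumulates under sustained ERK activity, and LIF (0.52), a cytokine gene, both named after their values were seen. Whether these lists differed from the members was not tested.

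**Figure D4:**
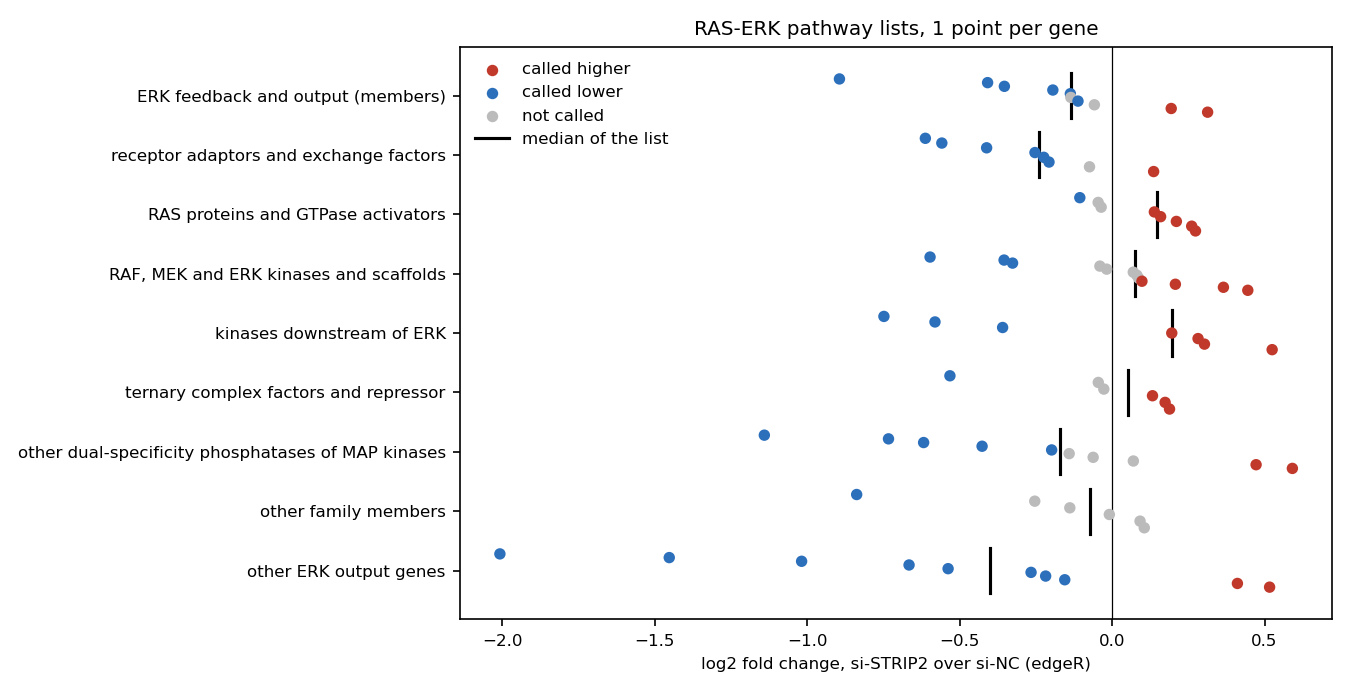
Log2 fold change (si-STRIP2 over si-NC, edgeR) of the 10 members and of the genes in 8 pathway lists, with 1 point per gene coloured by call and a black line at the median of each list. The other ERK output genes reach from -2.01 (FOS) to 0.52 (LIF), and the members from -0.89 (PHLDA1) to 0.31 (DUSP5).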

How the data were processed

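RNA-seq was performed on 3 si-NC and 3 si-STRIP2 libraries of HCT116 cells. Per the submitters' processing notes, the tools were bcl2fastq 2.20.0.422, FastQC 0.10.1, cutadapt 1.9.1, HISAT2 2.2.1 and HTSeq 0.6.1, with build GRCh38.p13. The strand setting of the counting and the annotation release are not given in the sources used here. Per the file headers, the authors deposited raw counts per gene and FPKM (counts relative to the exonic size of the gene and to the total of the library). Recomputing FPKM from the counts gave differences of at most 0.005, which is rounding.

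Counts were tested with edgeR 4.0.16 in R 4.3.3 (filterByExpr with a minimum count of 10, TMM scaling, group as the only term, 2-sided quasi-likelihood F test). P-values were adjusted by Benjamini-Hochberg over all 15687 genes tested, and genes with an adjusted p under 0.05 were called. Standard errors were derived from the log2 fold change and its F statistic. Family ratios of FPKM were compared by an exact permutation test. Alternatives used DESeq2 1.42.0 and limma 3.58.1. Counts of these 15687 genes were simulated with 200 genes changed and a common dispersion for all genes. In them edgeR recovered 79.0% of genes changed 1.5-fold and 90.0% of those changed 2-fold, and 2.87% of its calls were unchanged genes. In the data 8599 genes were called, with a dispersion fitted for each gene, so these rates do not carry over to the calls reported. Changes under 1.5-fold, the size of most called members, were not simulated. Total counts were 17184963 to 21721218 per library, and libraries of a group differed by more than counting error (chi-square per degree of freedom of at least 2.14).

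The members, the pathway lists and the naming rule were chosen with earlier results of these data known. From each pathway list the rule names the 4 called genes with the largest absolute log2 fold change among those whose higher group averaged 1 FPKM or more. It also names all other family members, and any overlapping gene that holds 5% or more of the count of the member it overlaps. Genes outside it are named as such. Some genes of the pathway lists are not reported here by name.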

Additional observations from a re-analysis of the deposited data

How the results depend on the processing

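Results were recomputed under 15 alternatives per gene. PHLDA1, DUSP4 and DUSP6 stayed lower and called under each of them, with log2 fold changes of -0.92 to -0.89, -0.43 to -0.38 and -0.38 to -0.32. SPRY2 and ETV5 were called under 0 of 15 and kept their sign. DUSP5, SPRY4, SPRED1 and ETV4 lost their call only in the test against a 1.2-fold change, and SPRED2 was called under 10 of 15. The 1.2-fold test called 3723 genes and 3 members, 3 lower and 0 higher, since it asks for a larger change.

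The labels number the libraries in both groups, but same-numbered libraries did not deviate together (correlations of -0.086, -0.013 and -0.072). With the replicate number as a block, 8293 genes and 8 members were called. With 1 library left out in turn, 7690 to 8494 genes and 7 to 8 members were called. Of the overlapping ratios, SPRED1/SPRED2 kept its sign and the other two did not: DUSP4/DUSP6, a log2 difference of -0.06, was 0.0034 without si-STRIP2 library 1 and ranged from -0.11 to 0.0034. SPRY2/SPRY4, a difference of 0.06, was -0.0041 without si-NC library 3 and -0.0066 without si-STRIP2 library 2, and ranged from -0.0066 to 0.13. Of the 10 members, SPRY2 had the lowest counts and the largest standard error.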
